A study of Mus musculus with 12 samples.

Results

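Photo-isolation chemistry (PIC) retrieves RNA from a chosen area of a tissue section. RT primers carrying NPOM, a caging group that light removes, are spread over the section, and a DMD (digital micromirror device) projects light onto the region of interest, so that only cDNA made there is amplified into a CEL-seq2 library. The comparison described here is that of CA1 with the DG (dentate gyrus) in fresh-frozen sections of the mouse hippocampus that were permeabilized with TE, and its members are the 8 replicate columns of the count table that bear these names, 4 for each region, of 48 in all. Both groups came from male ICR mice at 8 weeks of age, which were wild type and untreated as far as the labels go. Their brains were frozen without prior fixation. By the study's protocol, frozen sections of 10 µm were then fixed on the slide with PFA (paraformaldehyde). The TE sections were next incubated in TE at 70 °C for 1 h before reverse transcription. The 4 replicates of a region were marked by barcodes of 6 bases in the caged primer and pooled in 1 library per region, so that region and library cannot be told apart, and the study's methods call them biological replicates without saying which came from different animals. The p-values below measure the spread between these replicates. For one question, the same regions in fresh-frozen sections permeabilized with HCl (0.1 N for 5 min, 8 replicates) were set beside them. By the protocol, the HCl treatment also includes Triton X-100 before the acid and heated PBS after it. Levels in CA3 of the TE-permeabilized sections (4 replicates) were read beside those of CA1 and the DG.

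CA1 and the DG are neighbouring stations of the hippocampal circuit. Granule cells of the DG receive the input of the entorhinal cortex and send mossy fibres to CA3, whereas CA1 pyramidal cells receive the Schaffer collaterals of CA3 and form the main output of the hippocampus. Both are glutamatergic, but they arise under different transcription factors, fire at different rates and use different channels, receptors and adhesion molecules. The DG also holds the subgranular zone, where new neurons are born in the adult, and the layers around both cell bands contain interneurons, glia and vessels that a region drawn on a section takes in.

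The replicates were told apart by these primer barcodes, printed 5′ to 3′, since every count below was sorted by them. The same 4 sequences served all 12 libraries of the series, they differ from each other at 4 to 6 of their 6 positions, and their list does not tie a sequence to a replicate number. The capitals of the sequences shown later mark motifs, and the barcodes carry none.
barcode 1: ctgtac
barcode 2: tcacca
barcode 3: tccttc
barcode 4: tgtctg

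Depth varied between the replicates. Replicates 1 to 4 held 870761, 663857, 740395 and 370605 UMIs in CA1 and 491874, 586931, 596072 and 294445 in the DG, so replicate 4 was the shallowest of both. The mean of CA1 was 1.34 times that of the DG (two-sided exact permutation test over 70 divisions, p = 0.229, adjusted p = 0.457 over 2 values). Between 13817 and 17199 genes had at least 1 UMI in a replicate, and the regions did not differ in this number beyond the spread between replicates (exact permutation p = 0.486). Mitochondrially encoded genes took 2.94 to 4.83% of the UMIs in CA1 and 3.49 to 5.50% in the DG. Across 9107 genes, log2 levels of replicates of one region correlated with a Pearson's r of 0.928 to 0.965 and those of different regions with 0.875 to 0.941. These coefficients are across genes, which are not independent replicates. No pair of replicates agreed within sampling noise (chi-square per degree of freedom of at least 1.87), so each counted as 1 sample.

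The labels were checked first against genes that define the 2 cell bands. Wfs1 (ENSMUSG00000039474), which encodes wolframin of the endoplasmic reticulum and marks CA1 pyramidal cells, had 353, 387, 239 and 402 CPM (UMIs per 1000000 UMIs of the replicate) in CA1 replicates 1 to 4 and 34.6, 30.7, 77.2 and 37.4 in those of the DG. Prox1 (ENSMUSG00000010175), the homeobox factor that granule cells keep throughout life, had 113, 104, 182 and 146 CPM in CA1 and 895, 1246, 1023 and 1138 in the DG. The groups lay far apart for both genes, with log2 fold changes of CA1 over DG of 2.93 (SE 0.23) and -2.96 (SE 0.17). Of the other markers of these regions, Ociad2 had a log2 fold change of 1.48 (SE 0.21) and Dkk3, a secreted protein of the Dickkopf family, of 1.42 (SE 0.16), while Pdzd2 stood at -3.05 (SE 0.26). The 13 CA1 pyramidal markers of the list used here summed to between 1332 and 1883 CPM in CA1 and between 325 and 617 CPM in the DG. The 14 granule cell markers summed to 517 to 580.1 CPM in CA1 and 2538 to 3215 CPM in the DG. In CA3 of the same condition, Wfs1 stood at 46.1 ± 16.8 CPM (SD, n = 4) and Prox1 at 199 ± 41.4, so CA3 was far closer to the region without the marker than to the other.

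**Figure D1:**
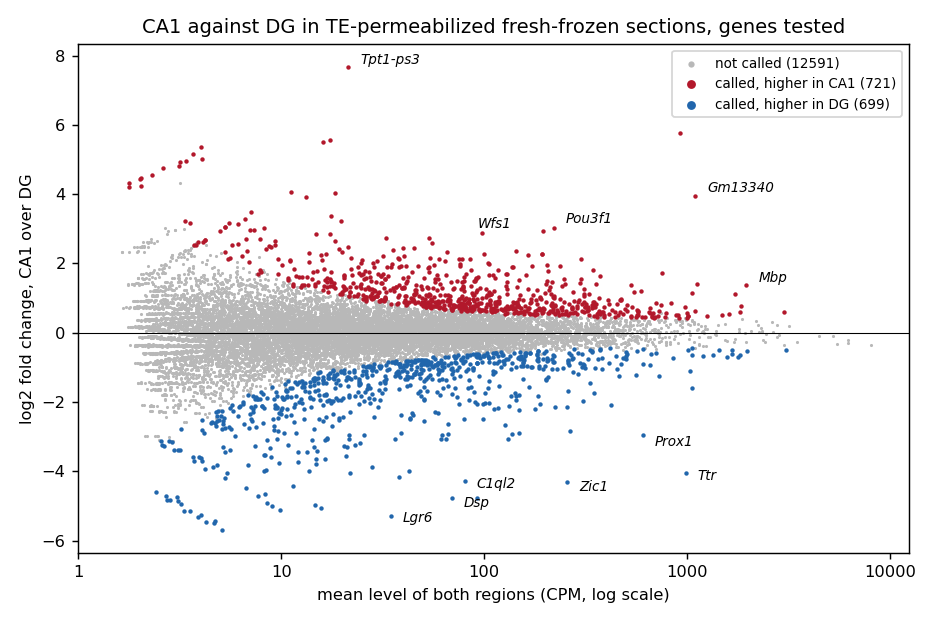
Log2 fold change of CA1 over the DG (y axis) against the mean level of both regions in CPM (x axis, log scale) for each of the 14011 genes tested, with the 721 called for CA1 in red, the 699 called for the DG in blue and the others in grey. The grey band narrows from left to right, so smaller differences were called at higher levels, and for genes with 0 UMIs in one region, the diagonal rows at the left and Tpt1-ps3, the plotted value depends on the prior count of the fit.

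With edgeR's quasi-likelihood test, with Benjamini-Hochberg adjustment across the 14011 genes with at least 10 UMIs in the 8 replicates, 1420 genes, or 10.1%, were called at an adjusted p under 0.05. They split almost evenly, with 721 genes (5.15%) higher in CA1 and 699 (4.99%) higher in the DG. The sizes were less even: 102 of the genes called for CA1 and 211 of those called for the DG differed by at least 2 on the log2 scale, and 33 and 90 by at least 3. Levels of the regions did not overlap between replicates for 2003 genes, or 14.3% of those tested, and 597 of the genes called for CA1 and 569 of those called for the DG were among them. Replicates with the same number deviated together, and with the replicate number as a block 2262 genes, or 16.1%, were called, 1166 for CA1 and 1096 for the DG. The blocked fit kept 720 of the 721 and 697 of the 699 genes, so it added calls and hardly removed any. Its median prior degrees of freedom, the weight of the spread shared across genes, were infinite, against 30.9 in the main fit. The p-values of the blocked fit thus rest on this shared spread and not on that of each gene. Of the 215 called genes named below, 187 were called with each of the 8 replicates left out in turn, and the other 28, listed in the closing part on processing, lost the call without at least 1 of them. How small a difference could be called depended on the counts. Among the 967 genes with at least 1000 UMIs over the 8 replicates 24.5% were called, the smallest at 0.43 on the log2 scale, and among the 3214 genes with 10 to 29 UMIs 3.17%, the smallest at 2.06. The direction changed with the counts too. Of the former genes 160 were called for CA1 and 77 for the DG, and of the latter 29 and 73. The larger number of big changes on the DG side is to be read beside this. The median log2 fold change of all genes tested was 0.01, and the counts of gene lists below are to be read against this value and the 10.1%.

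The genes named for their size of change had at least 80 UMIs, no overlap between regions and no Gm, Rik or identifier symbol. Among these, transcription factors and membrane proteins led those higher in CA1, next to the pseudogene Tpt1-ps3. Gm29216 and Gm13340, copies described further below, had larger changes and were left out by their symbols. Pou3f1 (ENSMUSG00000090125, chromosome 4, 124656807 to 124660655 in GRCm38), a POU-domain factor, reached 449, 428, 271 and 399 CPM in CA1 and 22.4, 25.6, 68.8 and 91.7 CPM in the DG. At 3.02 (SE 0.25) it was among the more abundant factors of this size of change, and it was low in all 4 DG replicates. Fibcd1, a membrane receptor for acetylated sugars of chitin and glycosaminoglycans, had 21.8, 48.2, 32.4 and 27.0 CPM in CA1 and 2.03, 3.41, 5.03 and 0 CPM in the DG (log2 3.36, SE 0.50). Egr1, an immediate early zinc finger factor, had 233, 200.3, 158 and 99.8 CPM in CA1 and 22.4, 11.9, 41.9 and 17 CPM in the DG (log2 2.89, SE 0.28). The lack of overlap between the regions in these genes follows from the rule that named them.

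The further genes of this group were secreted or signalling proteins and more factors. Meis2, a TALE homeobox factor, stood at 93.0 against 17.1 CPM (log2 2.58) and Tox, an HMG-box factor, at 36.6 against 6.16 CPM (2.46). Lefty1, a secreted antagonist of Nodal, was at 67.0 against 12.4 CPM (2.44), Spink8, a Kazal-type protease inhibitor, at 76.8 against 13.8 CPM (2.45) and Ccn3, a matricellular protein, at 31.3 against 5.43 CPM (2.66). The lack of overlap between the regions in these 3 secreted proteins was a condition for naming them. Ptpru, a receptor tyrosine phosphatase, had 72.4, 52.7, 55.4 and 43.2 CPM in CA1 and 2.03, 0, 18.5 and 17 CPM in the DG (log2 2.72, SE 0.41, or 3.63 without DG replicate 3). Prr18 (2.74), Ifitm10 (2.42) and Trbc2 (2.84), the constant segment of the T cell receptor beta locus, also belonged to this group, as did Wfs1 and Tpt1-ps3, a pseudogene taken up further below.

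Of the 15 genes per direction that were named for the size of their change, those of the DG reached larger values, leaving Tpt1-ps3 aside. Lgr6 (ENSMUSG00000042793, chromosome 1, 134983301 to 135105276 in GRCm38), a receptor for the Wnt-enhancing R-spondins, had 3.45, 0, 1.35 and 0 CPM in CA1 and 59.0, 86.9, 48.7 and 78.1 CPM in the DG. Its log2 fold change of -5.28 (SE 0.47, adjusted p = 6.14e-11) rests on 4 UMIs in CA1 and 132 in the DG, and without CA1 replicate 1, which held 3 of the 4, it was -6.39. Dsp (ENSMUSG00000054889, chromosome 13, 38151294 to 38198577 in GRCm38), the desmosomal linker desmoplakin, had 6.89, 1.51, 4.05 and 5.40 CPM in CA1 and 136, 153, 85.6 and 159.6 CPM in the DG (log2 -4.78, SE 0.34). C1ql2 (ENSMUSG00000036907, chromosome 1, 120340582 to 120343174 in GRCm38), a C1q-like protein that granule cells release at mossy fibre synapses, had 9.19, 3.01, 12.2 and 2.70 CPM in CA1 and 187, 143, 134 and 149 CPM in the DG (log2 -4.29, SE 0.29). For these 3 genes the lowest DG replicate was more than 10 times the highest CA1 replicate. Tdo2, which opens the ring of tryptophan, was at 1.91 against 41.6 CPM (log2 -4.04), Car12, a membrane carbonic anhydrase, at 3.54 against 38.7 CPM (-3.30), and Ece2, an endothelin-converting enzyme, at 4.07 against 42.2 CPM (-3.25). Fgf10, a fibroblast growth factor, was at 3.95 against 39.0 CPM (-3.08) and Kif26b, an atypical kinesin, at 7.55 against 65.5 CPM (-3.07). The remaining members of the 15 were Rpl37rt, a retrocopy described further below, and Zic1, Zic4, Lhx9, Calb2, Prkcd and Ntng1, of which Calb2 (calretinin) also marks mossy cells of the hilus.

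**Figure D2:**
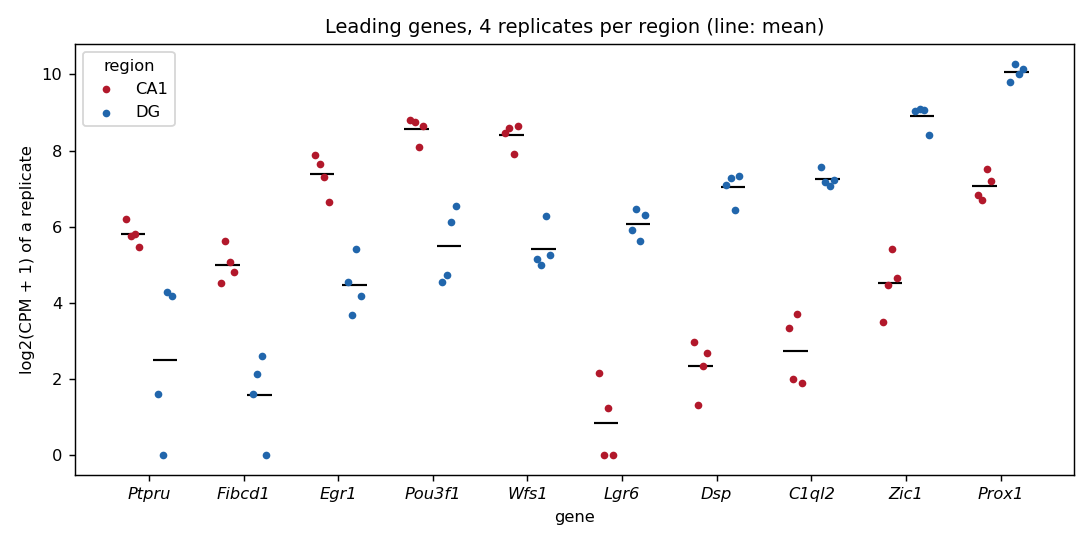
Level of 5 genes higher in CA1 and 5 higher in the DG in each replicate, as log2(CPM + 1) on the y axis, with CA1 replicates 1 to 4 in red and those of the DG in blue from left to right within a gene, and the mean of the 4 log2 values as a line. For all 10 genes the points of the regions are apart, which for all but Prox1 the rule of choice required. Prox1 and Zic1 are the most abundant of the DG group.

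Among these, Zic1, Prkcd and Ntng1 belong to the list of thalamus and habenula markers, and most of the list was called for the DG. Zic1, a zinc finger factor, had 10.3, 21.1, 41.9 and 24.3 CPM in CA1 and 525, 547, 537 and 339.6 CPM in the DG (log2 -4.32, SE 0.24). Its family member Zic4 (3.31 against 52.4 CPM, log2 -3.88) and the LIM-homeobox gene Lhx9 (4.04 against 71.9 CPM, -4.18) differed in the same direction. The 11 listed markers of thalamus and habenula summed to 203, 194, 234 and 213 CPM in the CA1 replicates and 1236, 1494, 1211 and 1202 CPM in the DG replicates. Of the 10 members tested, all with a log2 fold change below 0, 6 were called for the DG, among them Tcf7l2 (-2.20), the vesicular glutamate transporter Slc17a6 (-2.19) and the neurokinin precursor Tac2 (-2.45). Gpr151, a defining receptor of the habenula, had 1 UMI in CA1 and 7 in the DG and was not tested. The homeobox gene Pou4f1 (-5.04, from 2 and 66 UMIs) also differed in this direction, and Irx2 was counted 22 times in the DG and in no CA1 replicate, which makes it at least 9.85-fold higher in the DG against a floor of 3 counts over the region. Their part in the differences of the DG genes was not tested, and in bulk samples like these fewer cells of a type and less RNA per cell cannot be told apart.

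**Figure D3:**
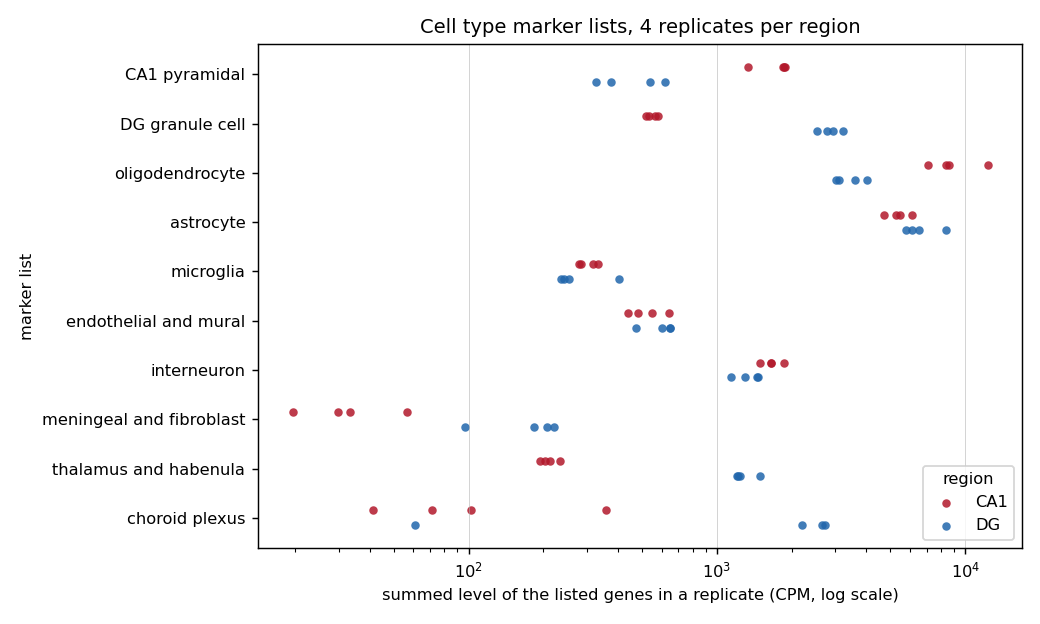
Summed level of 10 lists of cell type markers in each replicate (x axis, CPM on a log scale), with CA1 in red and the DG in blue, 4 points each. The points of the regions are apart for the CA1, granule cell, oligodendrocyte, interneuron, meningeal and thalamus lists, and in the choroid plexus list 3 DG replicates lie above 2000 CPM while the fourth, at 61.1 CPM, lies among those of CA1.

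Other lists of cell types moved with the region as well. Choroid plexus markers summed to 41.3, 102, 71.6 and 359 CPM in CA1 and 2653, 2205, 2733 and 61.1 CPM in the DG. Ttr (transthyretin), the most abundant of them, had 19.5, 84.4, 56.7 and 340.0 CPM in CA1 and 2549, 2138, 2620.5 and 47.5 CPM in the DG, so 3 DG replicates were high and replicate 4 lay among those of CA1. The log2 fold change of Ttr was -4.05 (SE 0.55, adjusted p = 9.35e-07), or -5.12 without CA1 replicate 4, the highest of that region, and 4 of the 5 members tested were called for the DG with a median of -4.05, or -3.09 with Clic6, which had 0 UMIs in CA1, at its bound of at least 8.51-fold. The defining genes Otx2 (2 UMIs in CA1 and 62 in the DG) and Clic6 (0 and 19) were low, Folr1 and Kcnj13 were counted fewer than 10 times in all, and Kl did not pass the test. Ependymal markers summed to at most 5.40 CPM in CA1 and at most 34.6 CPM in the DG. Meningeal and fibroblast markers summed to 33.3, 19.6, 29.7 and 56.7 CPM in CA1 and 183, 97.1, 221 and 207 CPM in the DG, without overlap, and 6 of the 7 tested were called for the DG, such as Col1a2 (-2.33), Lum (-3.96) and Ogn (-4.47). Dcn, a matrix proteoglycan that stood on the CA1 list, was higher in the DG as well (-2.42). The part of these tissues in the genes higher in the DG was not tested.

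Myelin genes were higher in CA1. All 12 oligodendrocyte markers were called in this direction, with a median log2 fold change of 1.68, and they summed to 8599, 7069, 8399.6 and 12315 CPM in CA1 and 4032, 3004, 3600.2 and 3101 CPM in the DG. Mbp, myelin basic protein and one of the most abundant transcripts that differed, had 2615, 2214, 2285 and 4134 CPM in CA1 and 1246, 934, 1048 and 1202 CPM in the DG (log2 1.37, SE 0.16). CA1 replicate 4 was the highest of the 8. Mal (2.13), Ermn (1.98) and Mog (1.89) differed most. Of the 7 tested genes of oligodendrocyte precursors only Sox10 (0.94) was called, and Pdgfra had 42.8 against 34.4 CPM.

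Astrocyte markers gave calls for the DG, and microglial and vascular markers gave none. Of 11 astrocyte markers tested, 3 were called, all for the DG: the water channel Aqp4 (311, 277, 344 and 407 CPM in CA1, 933, 712, 627 and 863 CPM in the DG, log2 -1.21), angiotensinogen Agt (-2.51) and the glutamate transporter Slc1a3 (-0.52). Its relative Slc1a2 had 2352 against 2316 CPM and an adjusted p of 0.889. None of the 10 microglial and none of the 9 vascular markers tested was called by edgeR, or by DESeq2, and 1 of them, a microglial gene, had an unadjusted p under 0.05. Interneuron genes were uneven. The peptide genes Vip (36.3 against 7.86 CPM, log2 2.17) and Sst (432 against 161 CPM, 1.44) and the calcium buffer Pvalb (64.1 against 19.9 CPM, 1.60) were higher in CA1, whereas the synthetic enzymes of GABA, Gad1 (165 against 183 CPM) and Gad2 (205 against 218 CPM), and the vesicular transporter Slc32a1 were not called. Reln (-0.90), the secreted protein of interneurons near the molecular layers, was higher in the DG. Neocortical layer markers were called for CA1 in 3 of 9 cases, Lamp5 (1.24), Fezf2 (1.09) and Etv1 (1.02).

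Within the principal cells, the summed lists for CA1 and the DG separated and those for CA3 and CA2 pyramidal cells overlapped between the regions. Of the 13 CA1 markers, 10 were called for CA1, and next to those named above they included Mpped1 (316 against 69.5 CPM, log2 2.28), Man1a (1.93) and Itpka (1.26), an IP3 kinase of dendritic spines. Ndst4 and Lypd1 did not pass the test (adjusted p = 0.139 and 0.0686) but did so with the replicate block. Of the 14 granule cell markers, 10 were called for the DG, among them Stxbp6 (26.1 against 236 CPM, log2 -3.07), a SNARE-binding protein, Plk5 (-3.63) and Npnt (-2.50), a ligand of integrins. Lct (lactase), also on this list, had 83.2 against 93.1 CPM and was not called. Of the 8 tested CA3 markers, Nectin3 (-0.88) and the kainate receptor gene Grik4 (-1.81) were the 2 called, both for the DG. Of the 5 tested CA2 markers, Ntf3 (-1.84) was called. Among genes of adult neurogenesis, Neurod1 had 37.9, 25.6, 56.7 and 45.9 CPM in CA1 and 193, 203, 163 and 211 CPM in the DG (log2 -2.18, SE 0.21) and Tubb2b was at -0.94. These were the 2 called of 7 tested, and the list summed to 540 to 717 CPM in CA1 and 768 to 1131 CPM in the DG. Dcx, the marker of migrating neuroblasts, had 30.3 ± 11.8 CPM in CA1 and 41.8 ± 9.47 CPM in the DG and did not differ beyond the spread between replicates (adjusted p = 0.489), and Eomes and Neurog2, which mark dividing progenitors, were counted fewer than 10 times.

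Several families of transcription factors were called more often than the average gene. Of 89 homeobox genes in the table, 57 passed the filter and 20 of these (35.1%) were called, 9 for CA1 and 11 for the DG. Those on the CA1 side included Pou3f1 and Meis2. The DG side was led by Irx2, Irx5, which had 1 UMI in CA1 and 42 in the DG, and Pou4f1, and Prox1 was its most abundant member. Basic helix-loop-helix factors divided by region: Neurod6 (log2 1.23) and Arnt2 (1.09) were higher in CA1, and Neurod1, Nhlh1 (-3.88) and Nhlh2 (-4.0) in the DG. The early growth response genes Egr1, Egr4 (2.11) and Egr3 (0.77) lay on the CA1 side, and the Zic genes on the other, with Zic1 also on the thalamus and habenula list. Foxp1, a forkhead factor, had 728, 901, 597 and 804 CPM in CA1 and 333, 322, 344 and 370.2 CPM in the DG (log2 1.18), while Foxo1 was higher in the DG (-1.83). All 6 called of the 28 tested nuclear receptors were higher in CA1. They included the thyroid hormone receptor Thrb (135 against 55.3 CPM, log2 1.29), the progesterone receptor Pgr and, as described below, Nr4a1, Nr4a2 and Nr4a3. By contrast, of 300 tested Zfp genes, the large class of zinc finger proteins, 8 (2.67%) were called, and 3 to 5 without CA1 replicate 3 or 4 or DG replicate 1, 2 or 4.

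Immediate early genes were called often. Of the 31 genes of this list 29 were tested, 11 were higher in CA1 and 4 in the DG (51.7% against 10.1% of all genes), with a median log2 fold change of 0.64. Without DG replicate 2, and also after thinning to the smallest total, 9 genes of the list were called. Arc, which acts at activated synapses, had 152, 136, 147 and 103 CPM in CA1 and 38.6, 17, 65.4 and 34.0 CPM in the DG (log2 1.82, SE 0.25). Nr4a1, an orphan nuclear receptor, had 58.6, 52.7, 40.5 and 40.5 CPM in CA1 and 16.3, 10.2, 11.7 and 6.79 CPM in the DG (log2 2.08, SE 0.32). Both genes were separate between the regions. Fos rested on 26 and 4 UMIs (2.17, adjusted p = 0.0387) and was called neither with DESeq2 (adjusted p = 0.184) nor after thinning all replicates to the smallest total (0.186). On the other side, Jun had 57.4, 42.2, 68.9 and 67.5 CPM in CA1 and 213, 286, 203 and 211 CPM in the DG (log2 -1.94, SE 0.19), and Bdnf, the neurotrophin, had 139, 136, 128 and 97.1 CPM and 281, 308, 245 and 228 CPM (log2 -1.05). Fosl2 (-1.35) and Inhba (-0.78), an activin subunit, were higher in the DG too.

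The 3 members of the Nr4a family were all higher in CA1 (Nr4a2 log2 0.93, Nr4a3 0.64), and their promoters are shown because they share a motif. TGACG, the 5 letters at the core of the cAMP response element, was searched on both strands in the 300 bases that run from 250 before to 50 after the start of a gene (RefSeq, GRCm38.p6). Each of the 3 promoters holds it 4 times, as do only 76 of the 32851 promoters of the table in 4 or more copies (0.231%). At least 1 copy is found in 18 of the 26 immediate early genes with an entry and in 20.8% of all promoters. The promoters of genes called for CA1 hold it in 25.4% of cases, those called for the DG in 20.7% and those of all genes tested in 30.3%. A match is a description of the sequence and not a site shown to be used. Capitals mark TGACG or its reverse complement CGTCA, and no copies overlap in these windows. The windows, each on the strand of the gene, are chr15:101266596-101266895 on the plus strand for Nr4a1, chr2:57123954-57124253 on the minus strand for Nr4a2 and chr4:48045055-48045354 on the plus strand for Nr4a3.
Nr4a1: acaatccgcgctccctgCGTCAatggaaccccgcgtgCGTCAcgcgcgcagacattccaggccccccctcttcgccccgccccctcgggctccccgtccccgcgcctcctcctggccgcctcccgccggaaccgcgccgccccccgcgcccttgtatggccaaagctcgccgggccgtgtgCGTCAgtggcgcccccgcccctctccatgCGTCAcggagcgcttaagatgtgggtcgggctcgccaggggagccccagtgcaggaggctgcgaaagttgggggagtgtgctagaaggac
Nr4a2: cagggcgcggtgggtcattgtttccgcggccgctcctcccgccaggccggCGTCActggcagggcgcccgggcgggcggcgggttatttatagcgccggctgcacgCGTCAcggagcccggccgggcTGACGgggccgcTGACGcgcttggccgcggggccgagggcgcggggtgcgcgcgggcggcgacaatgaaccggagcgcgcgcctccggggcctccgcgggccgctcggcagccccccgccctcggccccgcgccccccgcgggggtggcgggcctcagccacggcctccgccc
Nr4a3: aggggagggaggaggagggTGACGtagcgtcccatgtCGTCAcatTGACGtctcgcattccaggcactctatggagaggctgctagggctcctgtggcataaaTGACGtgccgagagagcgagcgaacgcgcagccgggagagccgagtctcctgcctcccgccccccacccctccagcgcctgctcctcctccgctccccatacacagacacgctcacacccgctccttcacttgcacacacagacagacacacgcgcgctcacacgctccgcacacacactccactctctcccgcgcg

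Ionotropic glutamate receptors of the main classes gave calls for CA1 only among the NMDA receptor subunits. Of 11 tested AMPA and NMDA receptor subunits, Grin2b (692 against 456 CPM, log2 0.62) and Grin2a (0.43) were called (18.2%), both for CA1. The other 9, the 4 AMPA receptor subunits among them, did not differ beyond the spread between replicates. Kainate receptors differed more. Grik4 and Grik2 (-1.0) were higher in the DG together with the auxiliary subunit Neto1 (-0.61), and Neto2 (0.65) was higher in CA1. Of 18 tested AMPA receptor auxiliary subunits and pentraxins 4 were called in each direction, such as Shisa7 (1.07) and Cacng3 (0.87) for CA1 and Cnih3 (-1.67), Shisa9 (-1.09) and Nptx1 for the DG, while 4 were called in all without CA1 replicate 1 and 5 without DG replicate 2. Nptx1, a pentraxin that gathers AMPA receptors, had 305, 318, 212 and 332 CPM in CA1 and 683, 584, 525 and 666 CPM in the DG (log2 -1.05). Metabotropic receptors split as well: Grm3 (1.33) and Grm5 (0.51) were higher in CA1, and Grm2 (3.73 against 31.7 CPM, -2.69) in the DG. Among 14 tested GABA receptor subunits, Gabrg3 (1.28) was higher in CA1, and Gabra4 (-0.94) and the metabotropic subunit Gabbr2 (-0.65) in the DG.

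Channels that set excitability carried some of the clearest differences of abundant genes. Kcnh7, an ERG-type potassium channel, had 189, 342, 194 and 229 CPM in CA1 and 30.5, 52.8, 60.4 and 44.2 CPM in the DG (log2 2.35, SE 0.22, adjusted p = 5.83e-10). Cacna1i, a T-type calcium channel, had 65.5, 114, 66.2 and 111 CPM in CA1 and 12.2, 11.9, 33.6 and 20.4 CPM in the DG (log2 2.16, SE 0.30). In both genes the lowest CA1 replicate was above the highest DG replicate. On the DG side stood the sodium channel Scn3a (153, 214, 153 and 181 CPM in CA1, 435, 518, 418 and 581 CPM in the DG, log2 -1.45), the L-type calcium channel Cacna1c (-1.32) and the potassium channels Kcnn3 (-1.96), Kcng1 (-1.90) and Kcnj2 (-1.86). Counted over the families, 7 of 61 tested potassium channel genes were called for each region (23% in all), 2 and 1 of 16 calcium channel genes, and 4 and 2 of 13 sodium and HCN channel genes. Of the 27 tested TRP, chloride and anoctamin genes, 2 were higher in CA1 and 3 in the DG, among the latter Trpm3 (-1.78).

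Receptors for modulators gave more calls for CA1 and those for peptides more for the DG. Of 31 tested receptors for monoamines, acetylcholine and adenosine, 6 were called for CA1 and 2 for the DG. The nicotinic subunit Chrna5 had 12.6, 12.1, 14.9 and 13.5 CPM in CA1 and 2.03, 0, 1.68 and 0 CPM in the DG (log2 3.48, SE 0.75), and the serotonin receptors Htr1f (3.15, from 28 UMIs in CA1 and 2 in the DG, both in replicate 3) and Htr1b (2.25) followed. The serotonin receptors on the DG side were Htr2c (-1.52) and Htr4 (-1.39). Of 22 tested receptors for peptides and cannabinoids, 1 was called for CA1, the natriuretic peptide receptor Npr3 (1.61), and 5 for the DG. The list as a whole did not lean to the DG, with 12 of the 22 log2 fold changes above 0 and a median of 0.13. Npy2r, a presynaptic receptor for neuropeptide Y, had 9.19, 19.6, 23 and 29.7 CPM in CA1 and 102, 111, 78.8 and 84.9 CPM in the DG (log2 -2.29, SE 0.27), and Npy5r (-1.87) and Npr1 (-2.49) went with it. The opioid precursor Pdyn, which granule cells make, had 4.59, 1.51, 1.35 and 0 CPM in CA1 and 44.7, 30.7, 21.8 and 27.2 CPM in the DG (log2 -3.64). Among the peptide genes higher in CA1, Cck had 1459.6, 854, 823 and 1125 CPM in CA1 and 667, 378, 649 and 734 CPM in the DG (log2 0.85, adjusted p = 0.000839).

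Second-messenger genes changed by isoform. Among the protein kinases C, Prkcb, a conventional member, had 1498, 1752, 1172 and 2037 CPM in CA1 and 557, 535, 611 and 822 CPM in the DG (log2 1.39, SE 0.16). Prkca stood at 0.95. The calcium-independent kinases Prkce (-0.48) and Prkcd (-3.55) and the diacylglycerol kinase Dgkh, which removes their activator (449, 594, 494 and 529 CPM in CA1, 1484, 1755, 1272 and 1861 CPM in the DG, log2 -1.60), were higher in the DG. Prkcd also stands on the list of thalamus and habenula markers. Stores and pumps of calcium leaned to CA1, with 6 of 15 tested genes of IP3 and ryanodine receptors, IP3 kinases and calcium ATPases called for CA1 and 1 for the DG. They included Atp2b4 (1.5), Ryr3 (1.28) and Itpka, and the plasma membrane pump Atp2b1, the most abundant gene called for CA1, had 3092, 3779, 3123 and 4325 CPM in CA1 and 2224, 2159, 2602 and 2622 CPM in the DG (log2 0.61). Cyclic nucleotide genes split between Pde1a (1.97) and Adcy9 (0.98) in CA1 and Adcy1 in the DG, which had 1171, 1333, 1609 and 1233 CPM in CA1 and 2259, 2148, 2067 and 2354 CPM in the DG (log2 -0.70). Of 24 tested G protein subunits, 4 were higher in CA1, led by Gng3 (1.5), and 3 in the DG, led by Gng8 (-2.98) and Gnal (-1.26), or 4 in all without DG replicate 1.

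Calcium sensors and kinases downstream showed the same division. Calb1, the calbindin of granule cells, had 89.6, 73.8, 64.8 and 94.4 CPM in CA1 and 327, 322, 253 and 251 CPM in the DG (log2 -1.83, SE 0.18). Ncald (-1.35) joined it in the DG, and hippocalcin, Hpca (1.08), and Pvalb were higher in CA1. In the list of CaM kinase, calmodulin and calcineurin genes, 7 of 30 tested were called for CA1, led by Camk1g (1.43) and the calcineurin regulators Rcan1 (1.14) and Rcan2 (0.93), and 2 for the DG, Pcp4 (-1.01) and Camk2d (-0.79). MAP kinases and their phosphatases were called 5 times in each direction of 46 tested, with Dusp5 (1.75) and Dusp6 (1.14) in CA1 and Mapk3 (-1.19) in the DG. Among 86 tested exchange factors and activating proteins for small GTPases of the Ras superfamily, 11 were higher in CA1, led by Arhgef18 (1.63), Rasal1 (1.49) and Rasgrp1 (1.2), and 8 in the DG. The Rac exchange factor Tiam1 had 78.1, 94.9, 119 and 80.9 CPM in CA1 and 433, 474, 361 and 408 CPM in the DG (log2 -2.13, SE 0.17), and Rasgrf2 stood at -1.69.

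Secreted signals and their receptors differed by pathway. Of 35 tested Wnt pathway genes, Wnt2 (2.70), Dkk3 and Fzd3 (0.78) were higher in CA1, and Lgr6, Wif1 (-3.46), Fzd10 (-3.07) and Tcf7l2 in the DG. Tcf7l2 also stands on the list of thalamus and habenula markers. In the TGF-beta and BMP pathway 6 of the 7 calls among 40 tested genes were for the DG, with Fst (follistatin, -3.70), the activin receptor Acvr1c (-1.93) and Tgfb2 (-1.82) showing the largest changes. FGF, EGF, PDGF, VEGF and IGF ligands and receptors were called in 5 of 46 cases (10.9%), close to the share of all genes, among them Igfbp4 in CA1 (184 against 49.7 CPM, log2 1.82) and Fgf10 in the DG. Of 9 tested neurotrophin genes 6 were called (66.7%). Sorcs3 (1.32), Sort1 (0.57) and the BDNF receptor Ntrk2 (0.47) were higher in CA1, and Bdnf, Ntf3 and Sorcs2 (-1.34) in the DG. The ligand gene Bdnf and its receptor gene thus lay on opposite sides, but Ntrk2, Sort1 and Sorcs2 each lost the call with some replicate left out.

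Adhesion and guidance molecules divided in both directions. Among leucine-rich and other synaptic organizers, 12 of 59 tested were called for CA1, led by Igsf9b (1.41) and Adgrl2 (1.27), and 10 for the DG. In the DG, the presynaptic organizer C1ql2 was joined by the leucine-rich postsynaptic protein Lrrtm4, which had 13.8, 10.5, 16.2 and 5.40 CPM in CA1 and 81.3, 51.1, 67.1 and 64.5 CPM in the DG (log2 -2.37). Teneurins were spread over both regions: Tenm3 had 146, 274, 147 and 103 CPM in CA1 and 34.6, 35.8, 58.7 and 40.8 CPM in the DG (log2 2.01, SE 0.25). The repellent Slit2 (27.6, 40.7, 45.9 and 18.9 CPM in CA1, 130.1, 141, 158 and 109 CPM in the DG, log2 -1.95) and the netrin receptor Unc5d (-1.58) were higher in the DG. Of 31 tested semaphorins, plexins and neuropilins, Sema3e (1.55) and Plxna1 (1.12) were called for CA1. Sema5a had 131, 145, 197 and 165 CPM in CA1 and 602, 816, 574 and 737 CPM in the DG (log2 -2.08, SE 0.16), and its partners in this list were Nrp2 (-1.73) and Sema6d (-1.60). The 3 ephrin and Eph genes called of 17 tested, Ephb3 (1.54), Efnb2 (1.38) and Ephb6 (1.10), were all higher in CA1.

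Cadherins and immunoglobulin adhesion molecules followed the same pattern. Cdh6 (1.51) led the 4 cadherins called for CA1, and the 7 for the DG included Cdh3 (0 UMIs in CA1 and 15 in the DG), Dsp and the desmoglein Dsg2 (-2.38), both parts of desmosomes. Pcdh8, a protocadherin, had 35.6, 40.7, 40.5 and 40.5 CPM in CA1 and 211, 138, 151 and 146 CPM in the DG (log2 -2.02, SE 0.21), against Pcdh10 (0.79) on the other side. Contactin 5, Cntn5, had 3.45, 4.52, 12.2 and 0 CPM in CA1 and 38.6, 57.9, 36.9 and 50.9 CPM in the DG (log2 -2.95), while contactin 2, Cntn2, was higher in CA1 (1.34). In the extracellular matrix, calls for the DG prevailed: 12 of 56 tested proteoglycans, matricellular proteins and matrix receptors were higher there and 2 in CA1, beside 5 and 1 of 35 collagens and laminins. Part of this count was made up of genes that also stand on the meningeal list (Ogn, Lum, Dcn, Col1a1, Col1a2 and Col3a1). The exception among collagens was Col11a1, which had 91.9, 140.1, 126 and 80.9 CPM in CA1 and 20.3, 18.7, 35.2 and 10.2 CPM in the DG (log2 2.32, SE 0.27). Enzymes of heparan and chondroitin sulfate were called for CA1 in 5 and for the DG in 2 of 35 cases, among them Hs3st2 (1.95) and the polymerase Ext1 (1.75).

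At the synapse itself, vesicle genes divided and scaffold genes leaned to CA1. Synaptotagmins were called in 6 of 14 cases. Syt7, a slow calcium sensor of release, had 1092, 1339, 1033 and 1271 CPM in CA1 and 1942, 2038, 1684 and 2197 CPM in the DG (log2 -0.70), Syt9 was at -3.80, and Syt2 (1.46) was higher in CA1. Of 70 tested SNARE and release genes, 8 were called for CA1, led by Cplx3 (3.05) and Stx1a (1.31), and 10 for the DG, led by Stxbp6 and the vesicle protein Synpr (52.8, 28.6, 68.9 and 51.3 CPM in CA1, 236, 170.4, 287 and 295 CPM in the DG, log2 -2.24). Postsynaptic scaffolds were higher in CA1 in 8 of 34 cases and in the DG in 1, Magi1 (-1.05). Beside Arc these were led by Homer1 (1.0) and Homer2 (0.95). Kinesin and dynein genes gave 8 calls for CA1, with Kif5a (1441 against 663 CPM, log2 1.15), a neuronal transport motor, at the head, and 1 for the DG, Kif26b, or 5 in all without CA1 replicate 4 or DG replicate 2. Tubulins, MAPs and stathmins gave 8 and 2 calls of 36, and the 2 were Map1b (-0.49), the most abundant gene called for the DG, and Tubb2b. Without CA1 replicate 1 or DG replicate 4, 6 genes of this list were called. Actin regulators and spectrins were called for CA1 in 8 of 58 cases and for the DG in none by edgeR, in 1 by DESeq2 and in 4 at an unadjusted p under 0.05. Over all genes, calls at high counts leaned to CA1, and the part of this in these lists was not tested.

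Among genes that every cell needs, those of ribosomes, proteasomes and chaperones were called less often than the 10.1% of all genes, and the lists of energy metabolism were not. Of 78 tested cytosolic ribosomal protein genes, 4 were called (5.13%), all for CA1, and 61 had a log2 fold change above 0, with a median of 0.23. Nuclear-encoded respiratory chain genes had a median of 0.26, and all 8 genes called of 77 were higher in CA1, led by Uqcrc1 (1.26) and Atp5d (0.92), and 5 were called without DG replicate 2. The summed levels overlapped between the regions. Ribosomal genes summed to 8670 to 11383 CPM in CA1 and 8333 to 11058 CPM in the DG, respiratory chain genes to 10225 to 13683 and 9543 to 11092 CPM. Genes of a list are not independent replicates. These small shifts were in the same direction as the mean total of UMIs, whose difference did not exceed the spread between replicates. The part of depth in them was not tested. Proteasome genes (1 of 35 called) and heat shock proteins and chaperonins (3 of 79) gave few calls. Glycolytic enzymes (2 of 16, 12.5%) and the V-ATPase and sodium pump genes (3 of 23, 13%) were nearer to the share of all genes, and among the latter Atp6v1a was higher in the DG (1272, 1330.1, 1312 and 1301 CPM in CA1, 2226, 2017, 1648 and 2184 CPM in the DG, log2 -0.60). Of 214 tested solute carriers 5 were called for CA1 and 15 for the DG (9.35%), with the largest changes in Slc9a2 (1.77) and in Slc13a4 (-3.09) and Slc27a2 (-2.90). Of the nuclear-retained long noncoding RNAs, Snhg11 (1719 against 1243 CPM, log2 0.50) was the 1 called of 10.

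**Figure D4:**
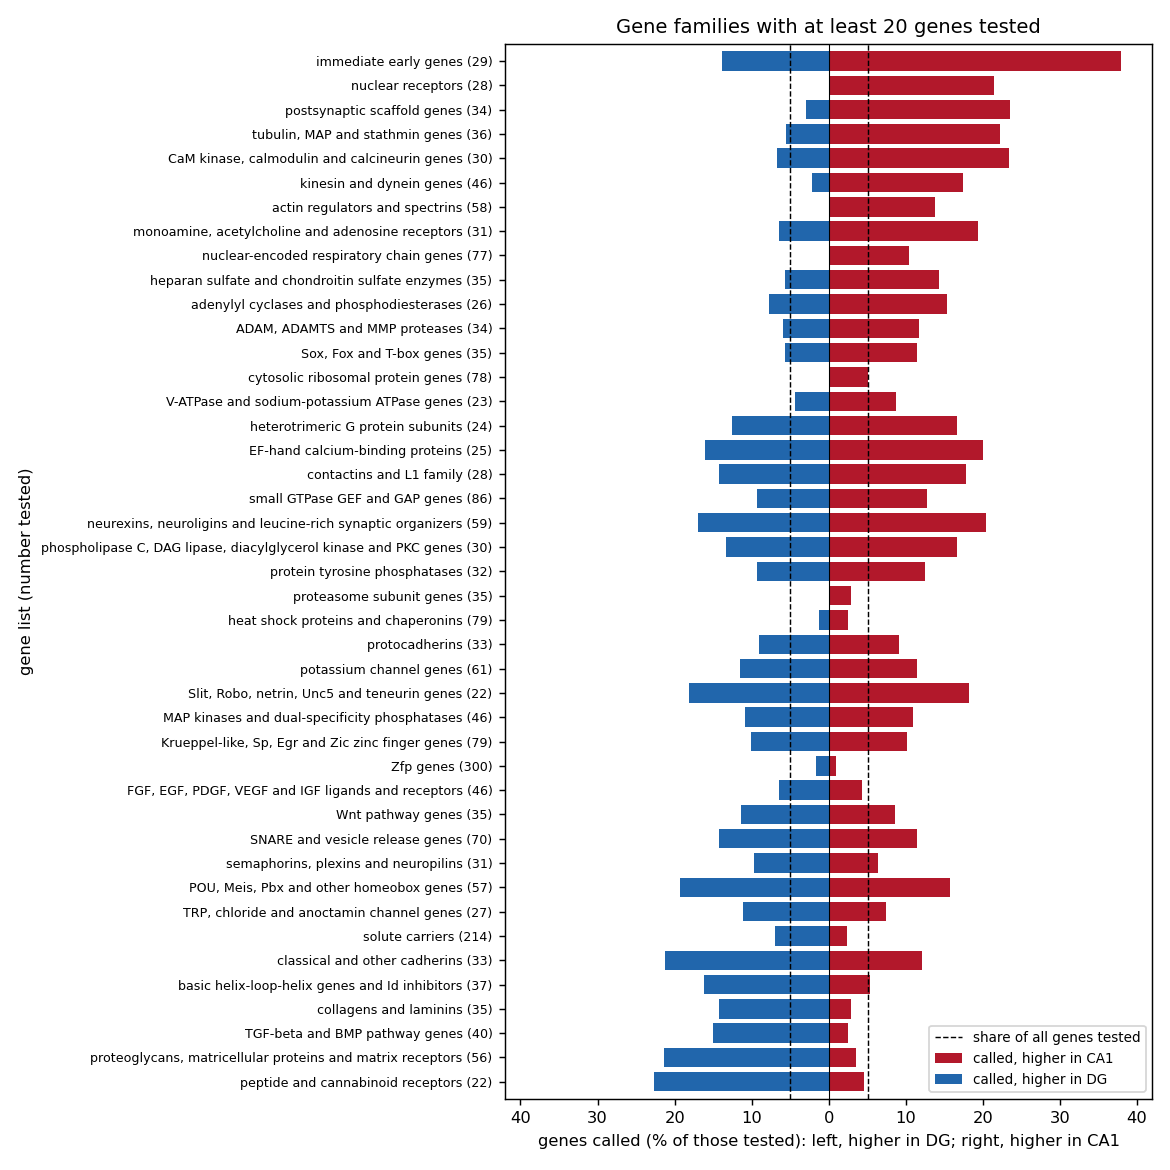
Share of the genes of a list that were called for CA1 (red, to the right) or the DG (blue, to the left), in percent of the genes tested, for the 43 families with at least 20 genes tested, ordered by the difference of both shares. The dashed lines stand at the shares over all genes, 5.15% and 4.99%, and the lists run from immediate early genes, 11 and 4 of 29, at the top to receptors for peptides and cannabinoids, 1 and 5 of 22, at the bottom.

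The gene classes of the annotation were not equal either. Genes of the class TEC, which are short unspliced models still to be tested by experiment, were called for the DG in 81 of 961 cases (8.43%) and for CA1 in 17 (1.77%), with a median log2 fold change of -0.36. Long noncoding RNAs gave 37 calls for the DG and 23 for CA1 of 845 tested, with a median of -0.15, and protein-coding genes 566 and 664 of 11805, with a median of 0.04. TEC genes took 1.29 to 1.79% of the UMIs in CA1 replicates and 1.78 to 2.35% in DG replicates. The tested genes of these classes also differed in counts, with median UMIs of 34 (TEC), 26 (long noncoding) and 121 (protein-coding). Over all genes, calls at low counts leaned to the DG, and the part of this in the classes was not tested. Many TEC models lie within or beside longer genes, and without a statement on strand in the sources used here, reads of a model and of the gene it overlaps cannot be told apart.

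Some of the largest values belonged to genes with near-identical copies elsewhere in the genome, whose reads an aligner can place on either copy, and these are uncertain. Tpt1-ps3, a processed pseudogene of Tpt1 on chromosome 6 (99877816 to 99878334 in GRCm38), was counted 59.7, 21.1, 47.3 and 43.2 CPM in CA1 and not once in the DG, or at least 29-fold higher against the floor of 3 counts, while Tpt1 itself had 38.0 against 32.2 CPM and was not called. Rpl37rt, a retrocopy of the ribosomal gene Rpl37, had 10.3, 4.52, 2.70 and 5.40 CPM in CA1 and 187, 139.7, 129 and 258 CPM in the DG, and Rpl37 went the other way (400.2 against 234 CPM, log2 0.82). The sums of gene and copy were 295 to 514 CPM in CA1 and 319 to 571 CPM in the DG and overlapped. Gm13340, one of 8 nuclear copies of mitochondrial DNA on chromosomes 1 and 2 that were gathered after their values had been seen, had 2069.5, 2089, 1741 and 2326 CPM in CA1 and 150.4, 86.9, 104 and 221 CPM in the DG (log2 3.96, SE 0.20). Gm29216 of this set had 1810 ± 203 CPM in CA1 and 33.4 ± 4.71 CPM in the DG (log2 5.76), and Gm10925, on the same stretch of chromosome 1, changed in the opposite direction (-2.12). Of the 8, 4 were called for CA1 and 1 for the DG, and Gm28437, with 2384 ± 365 and 2093 ± 409.8 CPM, was not called. Where reads of the mitochondrial genome were placed in each library was not tested. Of the mitochondrially encoded genes themselves, mt-Co1 (0.54) and mt-Atp6 (0.73) were the 2 called of 14 tested, both for CA1. With the replicate block 7 were called, 2 for CA1 and 5 for the DG.

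The same regions were also available from sections permeabilized with HCl, and an interaction term asked for each gene whether the difference between CA1 and the DG changed with the permeabilization. Of 16533 genes tested over 16 replicates, 233 (1.41%) were called, and 586 with the replicate block. The HCl replicates were uneven in depth. Replicate 4 held 127253 UMIs in CA1, 8.26% of them mitochondrially encoded, and 238861 in the DG. The other HCl replicates of CA1 held 610016 to 869363 UMIs, with 3.10 to 3.56% mitochondrially encoded. Without HCl CA1 replicate 4, 193 genes were called. Of the 721 genes called for CA1 with TE, 42 were among the 233, and of the 699 called for the DG, 37. Of the genes called for CA1, 637 of the 715 that were tested with HCl had the same sign there, and so did 637 of 693 called for the DG. Called with HCl in the same direction were 362 of the 715 and 425 of the 693, and 5 and 8 in the opposite direction. In each condition a region is 1 library, so differences between libraries cannot be told apart from those between protocols. Copies described above were among the genes with the smallest adjusted p: Rpl37rt had a log2 fold change of -4.78 with TE and -0.24 with HCl (adjusted p of the difference = 2.97e-08), and Gm28437 0.22 and 6.83. Ttr stood at -4.05 with TE and at 0.50 with HCl (adjusted p = 0.00794), Prlr, another choroid plexus gene, at -2.58 and 0.78 (0.0283), and Clic6 at 0 UMIs in CA1 with TE and 1.43 with HCl (0.019). The neuronal gene Nptx1 was less far apart with TE than with HCl (-1.05 and -1.92, adjusted p = 0.0495). For Wfs1 (0.295), Prox1 (0.787), Ociad2, Dkk3 and Pdzd2 (adjusted p of at least 0.634 for these 3) a change with the permeabilization was not shown. With all 16 replicates thinned to the smallest total, 49 genes were called in this test, 7 and 42 by direction, so the number depends on depth.

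**Figure D5:**
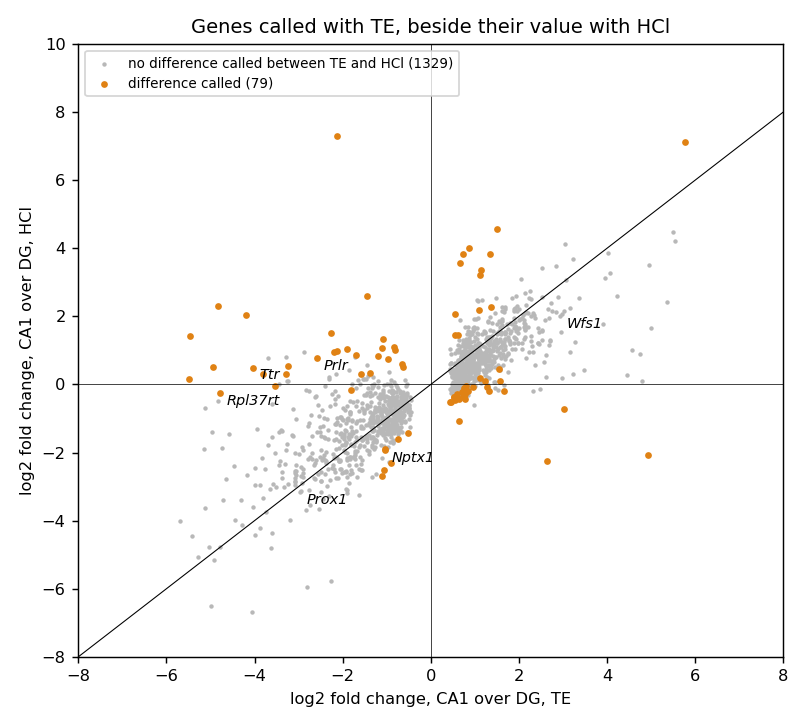
Log2 fold change of CA1 over the DG with HCl (y axis) against that with TE (x axis) for the 1408 genes called with TE that were also tested for the interaction, with the 79 whose difference between the conditions was called in orange. Grey points run along the diagonal line of equal values, and Ttr and Rpl37rt lie near 0 on the y axis.

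Levels in CA3 placed the genes of both groups further. Pou3f1 (59.1 ± 24.3 CPM, mean ± SD, n = 4) and Kcnh7 (54.8 ± 29.2 CPM) were low in CA3 as well as in the DG. Others were shared by both pyramidal regions: Dkk3 had 641 ± 116 CPM in CA3, Neurod6 357 ± 93.8 and Meis2 82.4 ± 16.5, values above those of all 4 DG replicates. Of the leading genes of the DG, Dsp (14.6 ± 7.86), C1ql2 (16.7 ± 7.47) and Lgr6 (8.75 ± 2.72) had a lower mean in CA3 than in any DG replicate, though above that of CA1, whereas Fgf10 (38.4 ± 5.51), Slit2 (251 ± 32), Npy2r (157 ± 24.0) and Nptx1 (841 ± 159.9) had means there close to or above those of the DG. Prkcd reached 59.3 ± 9.54 CPM in CA3. Since CA3 shares its condition with both regions, these levels are set side by side without a test.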

How the data were processed

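UMI counts per gene were deposited for 12 libraries of 4 barcoded replicates, 48 columns in all. Per the labels and the study's methods, the authors trimmed reads with Trim Galore!, handled UMIs of 6 bases with UMI-tools 1.0.0, mapped to GRCm38 with HISAT2 2.1.0, counted with featureCounts 1.6.4 and tested with DESeq2 1.20.0. The annotation release and the strand setting are not given in the sources used here. Positions came from GENCODE M21, which holds 32515 of the 32546 gene identifiers.

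The 8 TE columns of CA1 and the DG were compared with edgeR 4.0.16 (TMM normalization, quasi-likelihood test, R 4.3.3) over genes with at least 10 UMIs in all, and adjusted p-values under 0.05 are called. The fit was tested on simulated data of 13620 genes, where it recovered 44% of 2-fold and 94% of 4-fold changes with 7 false calls. Every simulated gene had a dispersion (spread between replicates beyond sampling) of 0.05, against a median of 0.0296 in the real fit. Replicate numbers had no shared deviation there, and the 200 changed genes left out those with the lowest counts. The shares recovered are therefore those of the simulation and not of these data. CPM are counts per 1000000 UMIs of a replicate. Precision is set by 294445 to 870761 UMIs per replicate in these 8 columns, and the HCl replicates reach lower totals. Replicates with the same number deviated together between the regions (Pearson's r of 0.261, 0.314, 0.219 and 0.222 across 9107 genes, which are not independent), with no label that says why. The numbers were taken to pair the samples only in the fit with the replicate block. Unless the block is named, calls, SEs and adjusted p-values come from the main fit, which leaves the pairing out. The median dispersion was 0.0296 in the main fit and 0.0101 in the blocked fit. The interaction of region and permeabilization was fitted over 16 replicates of TE and HCl sections, and the 28 columns of other conditions were not used.

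Members and gene lists were chosen with earlier results of these data known. The text names the 5 region markers (Wfs1, Prox1, Ociad2, Dkk3, Pdzd2), the 15 largest changes per direction among called genes with at least 80 UMIs, no overlap and a symbol other than a Gm, Rik or identifier name, the 10 most abundant called genes per direction, the 3 largest changes per direction of each list and any member of a list given as symbols. The nuclear copies of mitochondrial DNA and the progesterone receptor were chosen after their values were seen. Alternatives were DESeq2 1.42.0, its size factors, no filter on counts, filterByExpr, CA3 included, the replicate block, thinning to the smallest total, a correction for UMI saturation and each replicate left out. Leaving out both shallowest replicates was added after seeing the data. Some genes that this rule names are not reported here.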

Additional observations from a re-analysis of the deposited data

Results flagged for a closer look

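Samples far from the others of their region were looked for in 132 groups of 4 replicates, made up of the genes given by replicate, the depth measures and the sums of marker lists. In 7 of them the highest or lowest value stood apart by Dixon's test, and chance alone gives about 1 in 20. Jun reached 286.23 CPM in DG replicate 2, against at most 213.47 in the other 3, and Wfs1 77.172 CPM in DG replicate 3, against at most 37.358. Zic1 had 339.62 CPM in DG replicate 4 and at least 524.52 in the others, and Pcdh8 had 35.601 CPM in CA1 replicate 1 and 40.474 to 40.671 in the others. Among the lists, CA1 pyramidal markers summed to 1331.7 CPM in CA1 replicate 3, against 1840.9 to 1883.4 in the other CA1 replicates. Microglial markers summed to 404.15 CPM in DG replicate 4, where the others had at most 253.86, and thalamus and habenula markers to 1494.2 CPM in DG replicate 2, where the others had at most 1236.1. None of these values crossed into the range of the other region, apart from the microglial sum, whose regions overlap.

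A further group of results differed between TE and HCl by the interaction test. The log2 fold change of CA1 over the DG with TE minus that with HCl was -4.50 for Ttr, and the differences of Prlr (-3.34) and Kl (-2.17), also choroid plexus genes, had the same sign. Clic6, with 0 UMIs in CA1 with TE, had a log2 fold change of 1.43 with HCl. Rpl37rt differed by -4.51, mt-Atp6 by -3.08 and mt-Co1 by -1.50. The neuronal gene Nptx1 differed by 0.88. With HCl, the nuclear copies of mitochondrial DNA had log2 fold changes of CA1 over the DG of 3.57 (Gm13339), 4.15 (Gm13341), 6.83 (Gm28437), 4.56 (Gm28438), 4.09 (Gm28661), 7.30 (Gm10925) and 7.12 (Gm29216), and Tpt1 had 2.75. The cause of these differences was not tested, and in each condition a region is 1 library.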

How the results depend on the processing

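The counts of called genes stayed within 1.5 times of 1420 with DESeq2 (994), its size factors in edgeR (1425), no filter (1420), filterByExpr (1182), CA3 replicates included (1383), thinning to the smallest total (986) and the correction for UMI saturation (1429). The replicate block gave 2262 calls, 1166 for CA1 and 1096 for the DG. With 1 replicate left out, 1066 to 1296 genes were called, 538 to 660 for CA1 and 528 to 636 for the DG. For the interaction, the block gave 586 and thinning 49 genes in place of 233, and the fits without 1 replicate 110 to 222. The ratio of total UMIs was 1.18 to 1.54 without 1 replicate, and that of detected genes 1.00 to 1.08. After thinning, the ratio of detected genes turned from 1.04 to 0.985, on neither side past the test.

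Of the 215 called genes named in the text, 196 were called with DESeq2 and 190 of 214 after thinning, and none changed direction in any alternative run. Those that lost the call without at least 1 replicate were Cacng3, Camk1g, Egr3, Fos, Fosl2, Fzd3, Grin2a, Grin2b, Grm5, Hs3st2, Htr4, Inhba, Kcnj2, Map1b, Neto1, Neto2, Nr4a3, Ntrk2, Prkce, Rcan1, Reln, Shisa7, Slc1a3, Snhg11, Sorcs2, Sort1, Wnt2 and mt-Atp6. The log2 fold change of 31 moved by more than 1.5-fold without 1 replicate, in all of them away from 0. Genes that were not called turned sign at values near 0: Slc1a2 (-0.0137 to 0.150 without 1 replicate, with -0.00967 without CA1 replicate 4), Gad2 (-0.174 to 0.0583 without 1 replicate and 0.0247 without both replicates 4) and Slc32a1 (-0.0136 after thinning). Of 1343 counts of called genes over lists and alternatives, 1190 stayed within 1.5 times. At this depth no change under 2 on the log2 scale was called among genes with fewer than 30 UMIs.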

Other observations

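Several smaller families that the results above leave out held calls in both directions. Of 32 tested protein tyrosine phosphatases, 4 were higher in CA1 and 3 in the DG, and 4 in all were called without DG replicate 1 or 2. Ptprn2, a phosphatase-like protein of dense-core vesicles, had 26.0 against 9.81 CPM (log2 1.34) and Ptprd, a presynaptic organizer, 687 against 459.8 CPM (0.60) with Ptpru, whereas Ptpre (-0.72), Ptprj (-0.82) and Ptprk (-0.91) were higher in the DG. Of 34 tested ADAM, ADAMTS and MMP proteases, 4 were called for CA1, among them the matrix protease Adamts4 (52.6 against 11.1 CPM, log2 2.22) and Adam19 (1.66), and 2 for the DG, Adamts17 (-1.83) and Mmp16 (-0.76), or 3 in all without CA1 replicate 1. The glycosyltransferase Rfng (1.02), which modifies Notch receptors, was higher in CA1, and the Notch coactivators Maml2 (-1.08) and Maml3 (-1.51) were higher in the DG, of 13 tested genes of this pathway.

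Regulators of G protein signalling gave 1 call in each direction of 16 tested, Rgs2 (log2 0.57) for CA1 and Rgs6 (-1.05) for the DG. Of the 4 tested histone genes, whose transcripts largely lack a poly(A) tail, H1f2 (-1.38) was higher in the DG. Of the 3 tested erythrocyte markers Hbb-bt (-0.80) was higher in the DG, and the sums of the list overlapped between the regions, at 305 to 494 CPM in CA1 and 312 to 699.6 CPM in the DG. Of the 4 tested mossy cell markers, Calb2 (-3.98) was the 1 called. The sums of this list did not overlap, at 95.3 to 135 CPM in CA1 and 156 to 193 CPM in the DG. Vgf, the precursor of several secreted peptides, had 258 against 143 CPM (log2 0.89) and was higher in CA1 together with Cck, Sst and Vip.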
